A study of Mus musculus with 6 samples.

Results

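Potassium channel subunits were followed in the dorsal root ganglia of the mouse, which house the cell bodies of sensory neurons next to the spinal cord. The members are the genes whose symbol is Kcn followed by letters and a number, which takes in pore-forming and auxiliary subunits of 20 gene stems. Members made up 86 of the 22087 genes with deposited counts, and 81 of them reached a mean of 0.5 CPM over the libraries (CPM is a gene's count scaled to a common library size) and were among the 17316 genes tested. Poly(A) RNA was sequenced from 3 control libraries, Kif2a fl/fl without Cre, and from 3 conditional knockout libraries, Kif2a fl/fl with Avil Cre, all at 3 months of age. Both groups thus carry the floxed Kif2a alleles, and the kinesin that Kif2a encodes takes microtubules apart at their ends. The advillin gene Avil drives Cre in sensory neurons, so glia, vessels, immune cells and fibroblasts of the ganglion keep Kif2a. Because the control has no Cre, an effect of the Avil Cre allele itself and of the Kif2a deletion cannot be told apart. Whether each library is a separate animal is not stated in the labels, and every p-value therefore measures the spread between these libraries.

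Potassium channels set the resting potential of a sensory neuron and return its membrane to rest after an action potential. Voltage-gated (Kv) channels are tetramers of pore subunits, some of which are joined by silent subunits that form no channel alone and by cytoplasmic or membrane-spanning auxiliary subunits. Calcium- and sodium-activated channels shape the after-potential, inward rectifiers hold the potential near rest and serve potassium uptake in satellite glia, and tandem-pore (K2P) channels carry the background leak.

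Library totals ranged from 21683083 to 31626625 counts. Levels of the targeted gene Kif2a were 86.3, 79.9 and 89.2 CPM in the controls, in replicate order, against 69.8, 67.1 and 67.5 CPM in the knockouts, a log2 difference of -0.32 ± 0.10 (SE) that did not pass over all genes (edgeR adjusted p = 1.0). Avil, which drives Cre, averaged 579 ± 15.3 CPM in the controls and 288 ± 70.4 CPM in the knockouts (SD, n = 3). The log2 difference of Avil was -1.01 ± 0.17 (edgeR adjusted p = 0.535). Pan-neuronal markers were present throughout, with 10 genes summing to between 9633 and 13488 CPM. Of these, 6 had a log2 difference below 0 (60%, against 45.8% of all genes). For 1 of the 10, Rbfox3, the groups did not overlap (10%, against 4.3% of all genes), at 110 CPM in control and 82.5 CPM in knockout. Values scaled to these markers later on depend on how the 10 genes themselves differ. The libraries differed in other cells, and knockout replicates 1 and 2 stood at opposite ends. Fibroblast markers summed to 3743 CPM in knockout replicate 1 and to 969 CPM in knockout replicate 2, against 1646 to 2068 CPM in the controls. Lymphocyte markers summed to 106 CPM in knockout replicate 1 and 21.1 CPM in knockout replicate 2. The 5 skeletal muscle markers that stand in no other list summed to 92.1, 47.9 and 202 CPM in the controls and to 312, 3.75 and 3.94 CPM in the knockouts, so that knockout replicates 2 and 3 were both low in them.

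The windows of 250 bases upstream of 4 members are printed first. These 4 were picked by hand among the members with non-overlapping groups, and include a neighbouring pair on chromosome 1. Other members with non-overlapping groups, such as Kcnn1 and Kcnip4, are not shown. The sequences are from RefSeq on GRCm38.p6, written 5′ to 3′ on the gene's own strand. The RefSeq start after the Kcnj9 window does not begin a GENCODE transcript, while those of Kcnf1, Kcnk12 and Kcnj10 do. Capitals mark matches on either strand to the Sp1 box (GGGCGG), the CCAAT box (CCAAT), the TATA box (TATAAA), the E-box (CACGTG), the cAMP response element (TGACGTCA) and the left part of the repressor element RE1 (TTCAGCACC).
Kcnf1 (chr12:17176889-17177138, minus strand): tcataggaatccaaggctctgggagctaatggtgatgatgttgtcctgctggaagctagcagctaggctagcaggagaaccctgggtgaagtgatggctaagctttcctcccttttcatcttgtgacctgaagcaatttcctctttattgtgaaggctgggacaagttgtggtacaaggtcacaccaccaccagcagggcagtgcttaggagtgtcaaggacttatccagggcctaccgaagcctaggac
Kcnk12 (chr17:87797995-87798244, minus strand): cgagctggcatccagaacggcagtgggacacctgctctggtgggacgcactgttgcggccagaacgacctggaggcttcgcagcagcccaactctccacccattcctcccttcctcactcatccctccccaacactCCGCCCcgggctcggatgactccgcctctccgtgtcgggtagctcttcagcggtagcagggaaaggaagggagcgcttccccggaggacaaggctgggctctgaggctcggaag
Kcnj9 (chr1:172329323-172329572, minus strand): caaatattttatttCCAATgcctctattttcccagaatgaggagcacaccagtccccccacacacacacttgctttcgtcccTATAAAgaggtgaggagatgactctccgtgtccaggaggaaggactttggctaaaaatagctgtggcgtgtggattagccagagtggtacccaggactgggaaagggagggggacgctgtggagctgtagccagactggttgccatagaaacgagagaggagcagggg
Kcnj10 (chr1:172340960-172341209, plus strand): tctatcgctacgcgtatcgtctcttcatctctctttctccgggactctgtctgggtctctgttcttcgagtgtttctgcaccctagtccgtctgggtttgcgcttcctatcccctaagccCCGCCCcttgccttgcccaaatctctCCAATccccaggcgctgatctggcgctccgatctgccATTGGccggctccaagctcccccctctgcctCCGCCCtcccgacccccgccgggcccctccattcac
The Kcnf1 window held none of these letters and had a GC content of 51.2%. The Kcnk12 window held 1 Sp1 box at 64.8% GC, the Kcnj9 window 1 CCAAT box and 1 TATA box at 52.0% GC, and the Kcnj10 window 2 Sp1 boxes and 2 CCAAT boxes at 62.0% GC, with no overlap between matches. Such matches are common. Among all 32851 upstream windows given by RefSeq, 32.7% held the Sp1 box, 33.8% the CCAAT box and 12.4% the TATA box. Of the 88 windows of the 63 members found there, 44.3%, 29.5% and 3.41% held them. The median GC content was 58.6% in the member windows and 52.4% in all windows. The E-box stood in 5.68% of member windows and 6.02% of all windows, the cAMP response element in 0 of 88 and 1.55%, and the RE1 part in 1.14% and 0.301%.

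Per kb of exon, the auxiliary subunits Kcnab2 and Kcnip4 were the most abundant members. Levels were compared between genes as CPM per kb of annotated exon, averaged over the 6 libraries. Without scaling to exon length, Kv pore subunits summed to 1437 to 2269 CPM and auxiliary subunits to 970 to 1434 CPM across libraries. The tested members ranged from 0.0718 to 90.1 CPM per kb with a median of 2.99, and 20 were above 10 while 21 were below 1. Kcnab2, the beta subunit of shaker-type channels, stood highest at 90.1 CPM per kb, and its exons overlap those of Gm16334. Kcnab2 was followed by Kcnip4 at 65.6 CPM per kb, by Kcnd1 at 41.0, Kcnip3 at 39.1, Kcnip2 at 37.6, Kcnk1 at 35.2, Kcnmb1 at 33.5 and Kcna2 at 32.8. Kcnab1 and Kcnj10 followed at 20.02 and 17.8 CPM per kb. Kcnd1 is a pore of the transient A-type current, and the Kcnip genes encode calcium-binding partners of that pore. Kcnk1 encodes a K2P channel, Kcnmb1 a beta subunit of the large-conductance calcium-activated channel, and Kcna2 a low-threshold axonal pore. These 10 genes held 58.5% of the summed CPM per kb of all members, and Kcnab2 alone held 12.7%.

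**Figure D1:**
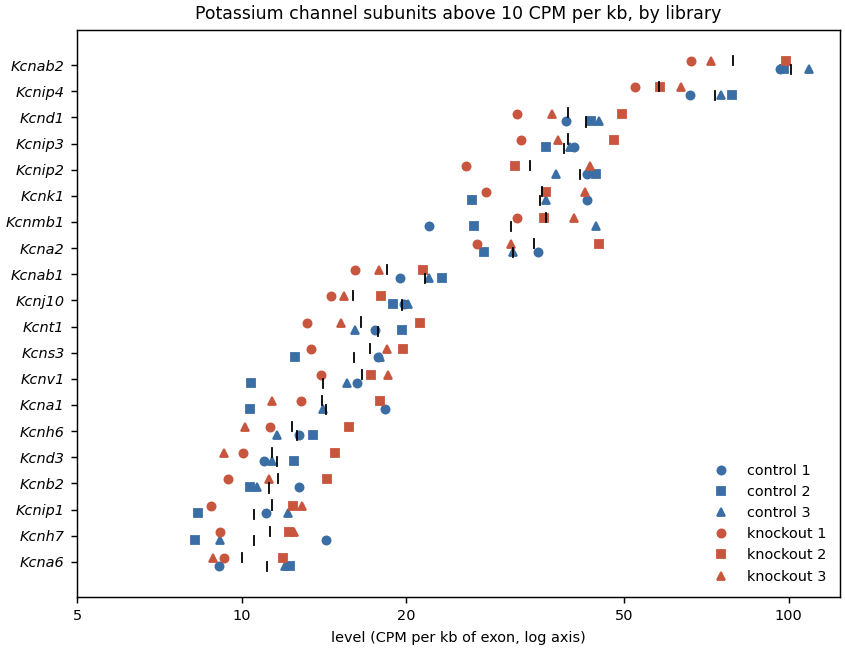
Level of the 20 potassium channel subunits above 10 CPM per kb of exon, on a log axis, with a symbol for each control (blue) and knockout (red) library and black bars at the group means. Kcnab2 and Kcnip4, both auxiliary subunits, stand highest, with means over all libraries of 90.1 and 65.6 CPM per kb.

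Neighbours in this order were often within each other's spread. Kcnip3, Kcnip2, Kcnk1, Kcnmb1 and Kcna2 lay between 39.1 and 32.8 CPM per kb, and the level of Kcnmb1 ran from 92.3 to 186 CPM among the controls alone. The member counts made up 0.423%, 0.402% and 0.417% of the counts in the controls and 0.326%, 0.479% and 0.372% in the knockout replicates. The groups overlapped in that share, with knockout replicate 1 lowest and knockout replicate 2 highest. Within the summed CPM per kb of members, the auxiliary subunits held 38.3%, 41.7% and 40.0% in the controls and 36.6%, 35.6% and 37.7% in the knockouts. These shares did not overlap between groups, at 40.0 ± 1.67% and 36.7 ± 1.02% (SD, n = 3), and are given as a description. Among the 6 roles this was the only one so separated. The Kv pores, for instance, held 31.5%, 29.9% and 29.2% in the controls and 30.7%, 34.6% and 29.3% in the knockouts.

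No potassium channel subunit passed the test between knockout and control. At a Benjamini-Hochberg adjusted edgeR p under 0.05, 0 of 81 members were called, where 0.0231% of all genes tested were called. DESeq2 also called 0 members and 0.201% of the genes to which it gave an adjusted p, and limma-trend called 0 members. The smallest adjusted p of a member was that of Kcnf1, at 0.957 with edgeR and 0.158 with DESeq2. Without adjustment, 10 members (12.3%) had an edgeR p under 0.05 and a lower level in knockout, where 2.84% of all genes did. A higher level in knockout with such a p was found for 3 members (3.70%), against 1.58% of all genes. The groups did not overlap for 7 members lower in knockout (8.64%, against 4.3% of all genes) and for 3 members higher in knockout (3.70%, against 4.33%). The exact two-sided permutation p of each of these is 0.1, the smallest that 3 against 3 libraries allow.

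Leaving out single libraries moved these counts. The number of members lower at an unadjusted edgeR p under 0.05 was 21 without knockout replicate 2 (25.9%, against 7.56% of all genes). It was 5 without control replicate 2 (6.17%, against 1.47%), 6 without control replicate 3 (7.41%, against 1.41%) and 6 without knockout replicate 3 (7.41%, against 1.20%). With the libraries scaled to pan-neuronal markers, 5 members (6.17%) and 0.964% of all genes were lower with such a p. No member was called by the adjusted p in any of these fits.

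Of the 81 members, 50 (61.7%) had a log2 difference below 0, against 45.8% of all genes tested. Their median log2 difference, knockout minus control, was -0.11, and that of all genes was 0.017. A fitted difference of more than 1.5-fold was found for 7 members (8.64%), where 5.35% of all genes had one. In bulk tissue, fewer cells of a type and less RNA per cell cannot be told apart. Scaled to the pan-neuronal markers, the median was -0.010 for members and 0.12 for all genes, and 50.6% of members and 24.9% of all genes were below 0. Without knockout replicate 2 the member median was -0.26, and without each of the other libraries in turn it lay between -0.091 and -0.037.

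**Figure D2:**
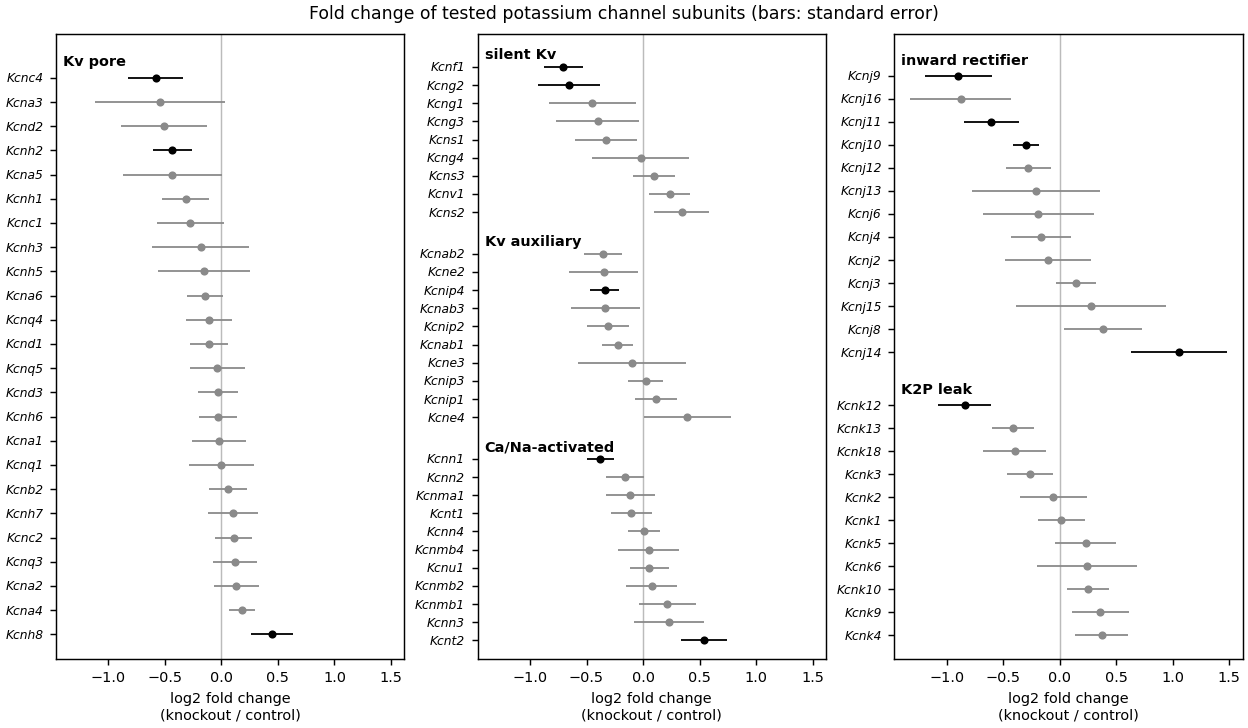
Log2 difference between knockout and control for 78 of the 81 tested potassium channel subunits, by role, with bars of 1 SE on each side and black points for an unadjusted edgeR p under 0.05. Over all 81 genes, 50 lie below 0 and 31 above, and none passed at an adjusted edgeR p under 0.05.

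Among the Kv pore subunits, 19 of 27 tested members had a log2 difference below 0, with a median of -0.07. Kcnh2, the pore of the ERG channel, which contributes to repolarisation, was at 55.9, 44.7 and 52.1 CPM in the controls and at 30.7, 48.0 and 34.3 CPM in the knockouts. Knockout replicate 2 lay above control replicate 2, so the groups overlapped. For Kcnh2 the log2 difference was -0.43 ± 0.17 (SE) and the unadjusted edgeR p was 0.0359. Kcnc4, a fast-inactivating pore opened by strong depolarisation, was at 35.8, 43.2 and 51.3 CPM in control and at 19.9, 39.3 and 27.9 CPM in knockout. Knockout replicate 2 again lay within the control range. The log2 difference was -0.58 ± 0.25, with an unadjusted edgeR p of 0.0462. Kcnh8, a pore of the ELK group, was at 6.70, 5.10 and 6.63 CPM in control and at 8.98, 8.51 and 7.67 CPM in knockout. Every knockout library was above every control library. The means were 6.14 ± 0.901 and 8.39 ± 0.663 CPM (SD, n = 3), and the log2 difference was 0.45 ± 0.19 with an unadjusted edgeR p of 0.0393.

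The abundant Kv pores overlapped between groups. Kcna2 was at 415, 330 and 372 CPM in control and at 320, 535 and 369 CPM in knockout, with knockout replicate 2 highest and knockout replicate 1 lowest of all libraries. Its log2 difference was 0.13 ± 0.20, with a 95% interval from -0.32 to 0.58. Kcnd1 was at 207, 230 and 238 CPM in control and at 168, 262 and 195 CPM in knockout, and its interval ran from -0.49 to 0.28. Kcnd3, another A-type pore, had a log2 difference of -0.03 ± 0.18. Kcnb2, a delayed rectifier pore, was at 170 ± 19.5 and 177 ± 37.5 CPM, a log2 difference of 0.05 ± 0.17. Kcnq3, a subunit of the M-current channel, was at 37.8, 32.3 and 35.2 CPM in control and 30.0, 51.0 and 33.3 CPM in knockout. Knockout replicate 2 was its highest library and knockout replicate 1 its lowest. The log2 difference of Kcnq3 was 0.12 ± 0.20, with a 95% interval from -0.33 to 0.57. Kcna1, a low-threshold axonal pore like Kcna2, was at 14.1 CPM per kb with a log2 difference of -0.02 ± 0.24, and Kcnh6, of the ERG group, at 12.5 CPM per kb with -0.03 ± 0.17.

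Silent Kv subunits included the member of smallest p. Of 9 tested, 6 had a log2 difference below 0, with a median of -0.33. Kcnf1, a silent subunit that joins Kcnb pores, was at 20.7, 28.4 and 24.3 CPM in control and at 13.9, 18.3 and 12.8 CPM in knockout. Every knockout library was below every control library. The means were 24.4 ± 3.82 and 14.99 ± 2.89 CPM (SD, n = 3), so that knockout stood at 61.3% of control. In the fit, Kcnf1 had a log2 difference of -0.71 ± 0.18 (SE) and an unadjusted edgeR p of 0.00308, and the difference lay between -0.88 and -0.59 when each library was left out in turn. Scaled to pan-neuronal markers it was -0.63. Kcng2, another silent subunit, was at 7.43, 10.3 and 8.62 CPM in control and at 3.99, 7.92 and 4.80 CPM in knockout. Knockout replicate 2 lay above control replicate 1. The log2 difference was -0.66 ± 0.27 with an unadjusted edgeR p of 0.0401, and exons of Kcng2 overlap those of D330025C20Rik. The abundant silent subunits Kcns3 and Kcnv1, at 16.6 and 15.3 CPM per kb, had log2 differences of 0.10 ± 0.19 and 0.23 ± 0.18. Kcns1 was at 30.1, 23.4 and 30.1 CPM in control and 13.1, 29.7 and 23.7 CPM in knockout, with knockout replicate 1 alone standing low.

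The authors' deposited table marks 2 members as passing its limits of false discovery rate and 1.5-fold change, Kcnf1 and Kcnk12, which is 2.33% of the 86 members against 0.656% of all 22087 genes. Its false discovery rate from fdrtool was 0.00115 for Kcnf1 and 0.00589 for Kcnk12, and in the authors' deposited table Kcnn1 and Kcnip4 stand at 0.0517 and 0.0796. Those rates come from the same counts, and are not Benjamini-Hochberg adjusted values.

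Auxiliary Kv subunits were below control in 7 of 10 tested members, with a median log2 difference of -0.27. Kcnip4 was at 239, 286 and 273 CPM in control and at 190, 211 and 231 CPM in knockout. The groups did not overlap, although knockout replicate 3 came close to control replicate 1. The means were 266 ± 24.2 and 210 ± 20.5 CPM (SD, n = 3), and knockout was at 79.1% of control. Kcnip4 had a log2 difference of -0.34 ± 0.13 with an unadjusted edgeR p of 0.0285, and it was -0.25 relative to pan-neuronal markers. Exons of Kcnip4 overlap those of 5730480H06Rik and Gm20700. Kcnab2 was at 538, 547 and 607 CPM in control and at 370, 552 and 402 CPM in knockout. Knockout replicates 1 and 3 were below the controls and knockout replicate 2 was among them. Its log2 difference was -0.35 ± 0.17, with a 95% interval from -0.74 to 0.03. Kcnip2 was at 149, 154 and 131 CPM in control and 89.5, 110 and 151 CPM in knockout, here with knockout replicate 3 among the controls. Kcnab1 had a log2 difference of -0.23 ± 0.14. Kcnip3, which is also known as a calcium-dependent transcriptional repressor, had a log2 difference of 0.02 ± 0.15, and Kcnip1 one of 0.11 ± 0.19. Of the membrane-spanning Kcne subunits, Kcne2 was the most abundant at 5.01 CPM per kb, with a log2 difference of -0.35 ± 0.30.

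Calcium- and sodium-activated channel genes lay on both sides, with 4 of 11 tested members below control and a median log2 difference of 0.05. Kcnn1, a small-conductance calcium-activated channel, was at 34.6, 33.1 and 34.3 CPM in control and at 23.0, 28.4 and 27.0 CPM in knockout. The controls were close together and all knockouts were below them. The means were 34.0 ± 0.805 and 26.1 ± 2.79 CPM (SD, n = 3), and knockout was at 76.9% of control. Kcnn1 had a log2 difference of -0.38 ± 0.12 with an unadjusted edgeR p of 0.0107, and -0.29 relative to pan-neuronal markers. Its exons overlap A230052G05Rik. The relatives Kcnn2 and Kcnn4 had log2 differences of -0.16 ± 0.17 and 0.01 ± 0.14. Kcnt2, a sodium-activated channel, was at 10.3, 6.94 and 6.38 CPM in control and at 11.3, 11.3 and 11.7 CPM in knockout. Every knockout library was above the controls, of which replicate 1 was nearest. The means were 7.88 ± 2.15 and 11.5 ± 0.251 CPM (SD, n = 3), with knockout at 145% of control, and the log2 difference was 0.54 ± 0.21 with an unadjusted edgeR p of 0.0274. Exons of Kcnt2 overlap those of 4930590L20Rik. The more abundant sodium-activated channel Kcnt1, at 17.1 CPM per kb, had a log2 difference of -0.11 ± 0.18. Kcnma1, the pore of the large-conductance calcium-activated channel, was at 69.6, 64.7 and 55.1 CPM in control and 43.8, 79.7 and 51.6 CPM in knockout, and its groups overlapped. Its beta subunit Kcnmb1 was at 92.3, 112 and 186 CPM and 133, 150 and 169 CPM, a log2 difference of 0.21 ± 0.25. Kcnu1, known as the alkalinisation-gated channel of sperm, was at 3.10 CPM per kb with a log2 difference of 0.06 ± 0.17.

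Inward rectifiers had 9 of 13 tested members below control, with a median log2 difference of -0.19. Kcnj10, the inward rectifier through which satellite glia and astrocytes take up potassium, was at 107, 102 and 109 CPM in control and at 78.8, 97.3 and 83.0 CPM in knockout. All knockouts were below all controls. The means were 106 ± 3.51 and 86.4 ± 9.71 CPM (SD, n = 3), and knockout was at 81.4% of control. For Kcnj10 the log2 difference was -0.30 ± 0.12 with an unadjusted edgeR p of 0.0313. Satellite glia markers summed to 7051, 7263 and 6951 CPM in control and to 8180, 6471 and 8150 CPM in knockout. Knockout replicate 2 was the lowest library in that sum, of which Apoe alone averaged 4594 CPM, and 7 of 8 markers had a log2 difference above 0. Spinal cord and brain markers summed to 59.1, 136 and 60.0 CPM in control and 65.0, 34.0 and 28.8 CPM in knockout, with all 6 tested below 0. The part of either list in the Kcnj10 result was not tested.

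Kcnj9, a subunit of G-protein-gated inward rectifiers, lies 11.89 kb from Kcnj10 (chromosome 1, 172320501 to 172329318 on the minus strand, with Kcnj10 at 172341210 to 172374085 on the plus strand). Their starts face each other, they are transcribed in opposite directions, and their upstream windows are printed above. Kcnj9 was at 2.005, 1.92 and 1.51 CPM in control and at 0.779, 1.21 and 0.90 CPM in knockout, from 44, 44 and 47 counts and 17, 29 and 21 counts. All knockouts were below all controls, at a low level. The means were 1.81 ± 0.267 and 0.963 ± 0.222 CPM (SD, n = 3), and the log2 difference was -0.90 ± 0.30 with an unadjusted edgeR p of 0.0144. Exons of Kcnj9 overlap those of Gm36937. Its partner subunit Kcnj3, the most abundant of the G-protein-gated members, was at 27.6, 22.0 and 21.6 CPM in control and 20.5, 31.6 and 26.4 CPM in knockout, a log2 difference of 0.14 ± 0.18.

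Kcnj11, the pore of the ATP-sensitive channel, was at 5.33, 3.88 and 3.56 CPM in control and at 2.93, 3.09 and 2.36 CPM in knockout. The groups did not overlap. For Kcnj11 the log2 difference was -0.60 ± 0.25 with an unadjusted edgeR p of 0.0371. Kcnj14, another inward rectifier, was at 0.638, 0.742 and 0.256 CPM in control and at 1.01, 1.001 and 1.33 CPM in knockout, from 14, 17 and 8 counts and 22, 24 and 31 counts. All its knockouts were higher, on few counts. The log2 difference was 1.06 ± 0.42 with an unadjusted edgeR p of 0.0341. Kcnj12, a strong inward rectifier at 8.06 CPM per kb, had a log2 difference of -0.28 ± 0.20.

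K2P leak channels had 5 of 11 tested members below control, with a median log2 difference of 0.015. Kcnk12, a K2P gene whose product gives little current alone, was at 5.19, 7.37 and 6.63 CPM in control and at 2.84, 4.34 and 3.51 CPM in knockout. All knockouts were below all controls. The means were 6.40 ± 1.11 and 3.56 ± 0.749 CPM (SD, n = 3), and knockout was at 55.7% of control. For Kcnk12 the log2 difference was -0.84 ± 0.24, with an unadjusted edgeR p of 0.0065 and a DESeq2 adjusted p of 0.365, and -0.78 relative to pan-neuronal markers. Its close relative Kcnk13 was at 8.88, 12.5 and 12.5 CPM in control and 9.03, 8.76 and 7.67 CPM in knockout, with control replicate 1 between the knockouts, and a log2 difference of -0.41 ± 0.18. Kcnk1, the most abundant K2P member, was at 95.7, 58.8 and 80.5 CPM in control and 62.4, 80.3 and 94.7 CPM in knockout. Control replicate 2 and knockout replicate 1 were low in it, and the log2 difference was 0.01 ± 0.21. The channels opened by stretch and heat, Kcnk2, Kcnk4 and Kcnk10, had log2 differences of -0.06 ± 0.30, 0.37 ± 0.24 and 0.25 ± 0.18. Kcnk18, the calcineurin-regulated leak channel of sensory neurons, was at 4.78, 4.32 and 4.61 CPM in control and 3.02, 4.92 and 2.44 CPM in knockout, a log2 difference of -0.40 ± 0.28. These and the other members given outside the naming rule, among them Kcnq3, Kcns1 and Kcnk13, were chosen after their values were seen.

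**Figure D3:**
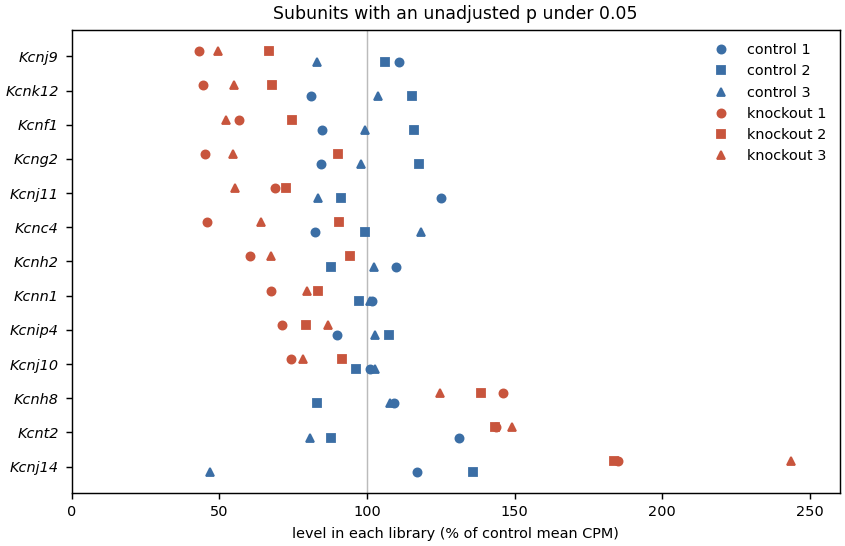
Level in each library, in percent of the control mean CPM, of the 13 members with an unadjusted edgeR p under 0.05, with blue control and red knockout symbols by replicate. Groups do not overlap for 10 of them, and knockout replicate 2 reaches the control range in Kcnh2, Kcng2 and Kcnc4.

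No marker of the pain-sensing neuron classes passed at an adjusted edgeR or DESeq2 p under 0.05. Non-peptidergic nociceptor markers had a log2 difference below 0 in 7 of 7 genes and summed to 938, 1175 and 1126 CPM in control and to 657, 969 and 702 CPM in knockout. Knockout replicate 2 lay above control replicate 1 in that sum, so the groups overlapped. Gene by gene, 5 of the 7 were lower at an unadjusted edgeR p under 0.05 (71.4%, against 2.84% of all genes). The groups did not overlap for 2 of the 7 (28.6%, against 4.3% of all genes). Peptidergic markers summed to 2714, 2524 and 2791 CPM in control and to 3023, 2784 and 3186 CPM in knockout, and these sums overlapped too. Of these 7 genes, 1 was higher at an unadjusted edgeR p under 0.05 (14.3%, against 1.58% of all genes). For 2 of the 7 the groups did not overlap, with knockout higher (28.6%, against 4.33% of all genes). No marker of either list was at 0 in all libraries, and their part in the potassium channel values was not tested.

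The members varied more among the knockout libraries than among the controls, and by their medians so did all genes tested. The median coefficient of variation of members was 25.3% in knockout and 14.99% in control, against 16.4% and 10.6% over all genes tested. It was larger in knockout for 60 of 81 members, a share that was not computed over all genes. Knockout replicate 2 was the highest of its group in 51 members (63.0%, against 39.5% of all genes) and in 23 of 27 Kv pores (85.2%). Knockout replicate 1 was the lowest in 44 members (54.3%, against 35.7% of all genes). A member score, the mean log2 deviation of the tested members from their 6-library mean, was 0.098, 0.050 and 0.029 in control and -0.13, 0.085 and -0.13 in knockout. The pan-neuronal score was 0.093, -0.057 and 0.11 in control and -0.28, 0.15 and -0.013 in knockout. Knockout replicate 2 was thus the highest knockout in both scores. Knockout replicates 1 and 3 were close in the member score, at -0.135 and -0.128, and apart in the pan-neuronal score, at -0.277 and -0.013. Among the controls, replicate 2 was lowest in the pan-neuronal score and replicate 3 in the member score. The part of neuronal RNA content in the spread of the members was not tested.

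**Figure D4:**
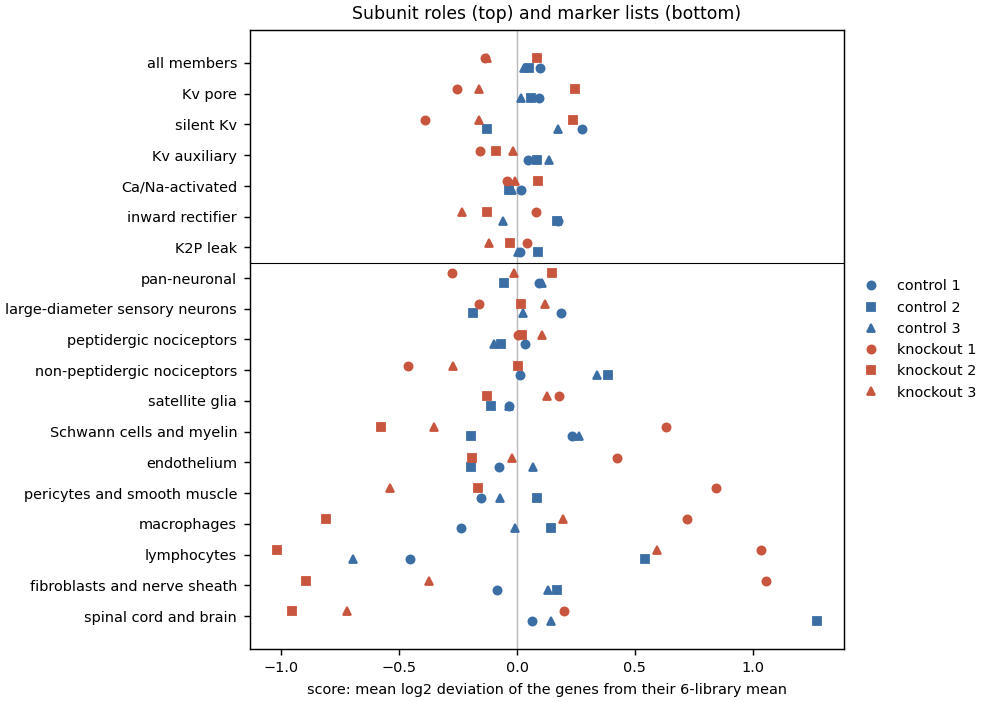
Score of each library, as the mean log2 deviation of a list's genes from their 6-library mean, for potassium channel roles (top) and marker lists (bottom), with blue control and red knockout symbols by replicate. Knockout replicate 2 is highest in the Kv pores at 0.25, and knockout replicate 1 is highest in fibroblast markers at 1.05.

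A few members stood high in a single library, and were chosen after their values were seen. Kcne4, a Kcne subunit, was at 6.002 CPM in knockout replicate 1 and at 2.25 to 2.82 CPM elsewhere. Kcnj8, the ATP-sensitive pore of pericytes and vascular smooth muscle, was at 4.12 CPM there and at 1.58 to 2.70 CPM elsewhere. Kcnj15 was at 3.16 CPM there and at most 1.61 CPM elsewhere. Pericyte and smooth muscle markers also summed highest in that library, at 367 CPM against 128 to 281 CPM elsewhere. Rgs5 of that list was at 198 CPM in knockout replicate 1 and at 200 CPM in control replicate 2. The sums of satellite glia, Schwann cell, endothelium, macrophage, lymphocyte, fibroblast and blood markers were highest in knockout replicate 1 as well. The part of these cells was not tested. Control replicate 2 was at 1.68 to 1.97 times the next library in Kcna3, Kcnj16, Kcna5 and Kcnab3. Spinal cord and brain markers summed to 136 CPM in that library, with a part that was not tested.

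Partner genes that carry no Kcn symbol were counted from a written list. Of 26 tested, 14 (53.8%, against 45.8% of all genes) were below control and 12 above. With edgeR 0 passed, where 0.0231% of all genes did. DESeq2 called 1, where it called 0.201% of the genes to which it gave an adjusted p. That was Lgi4, a secreted protein of glia needed for myelination, with 17.6 ± 0.856 CPM in the controls and 27.2 ± 3.57 CPM in the knockouts (SD, n = 3). Its log2 difference was 0.63 ± 0.13, with an adjusted p of 0.859 by edgeR and 0.0454 by DESeq2. Exons of Lgi4 overlap those of Fxyd3. At an unadjusted edgeR p under 0.05, 2 of the 26 were lower (7.69%, against 2.84% of all genes) and 1 higher (3.85%, against 1.58%). The 2 lower were Dlg4 and Vapb. Dlg4, a scaffold that clusters shaker-type channels, was at 79.4 and 61.7 CPM, with a log2 difference of -0.36 ± 0.15. Its groups overlapped, with knockout replicate 2 at 74.1 CPM and control replicate 1 at 70.0 CPM. Vapb, an endoplasmic reticulum protein bound by Kcnb channels, was at 182 and 145 CPM, with -0.33 ± 0.13. The A-type accessory genes Dpp6 and Dpp10 had log2 differences of -0.12 and -0.19, and the sulfonylurea receptors Abcc8 and Abcc9 had 0.08 and 0.11. Of the axonal scaffold list 5 of 12 tested genes (41.7%) were below control, against 45.8% of all genes. Of the Kcnb and Kcnq partners 6 of 8 (75%) were.

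Some members lie close to each other in the genome. Within 0.5 Mb of each other lay 17 pairs formed by 22 members. In 12 pairs both genes were tested, and 7 of these were both below control and 1 both above, a count that draws on overlapping pairs. No share over neighbouring pairs of all genes was computed, and 61.7% of all tested members were below control, so the count is a description only.

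Members at the low end carried little information. Kcne3, Kcnj6 and Kcna3 lay just above the limit of 0.5 CPM, at mean levels before TMM scaling of 0.539, 0.549 and 0.561 CPM, and Kcna10, Kcnk16 and Kcnk7 just below it, on the same scale at 0.495, 0.439 and 0.260 CPM. Kcnj5 and Kcnmb3 were the other untested members. Kcnj5, a G-protein-gated inward rectifier, had 27 counts in control replicate 2 and at most 3 in any other library. Of the tested members, 28 have annotated exons that overlap another gene, and whether reads were counted by strand is not given in the sources used here.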

How the data were processed

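Poly(A) RNA of 6 dorsal root ganglion libraries was analysed, 3 control and 3 conditional knockout, grouped by the sample labels. The authors deposited a table by gene symbol whose raw counts are whole read counts, per the file headers, with totals from 21683083 to 31626625. The authors' normalized signal equals the raw count over 1 factor for each library. The regularized log2 values and log2 fold changes in the deposited table are the authors', as are its p-value and fdrtool rate per gene, per the file headers. According to the submitters' processing notes, cutadapt, STAR and DESeq2 were used with mm10. Versions, the counting program and the strand setting were not given in the sources used here.

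Raw counts of genes with a mean of at least 0.5 CPM went into edgeR 4.0.16 (R 4.3.3), using TMM scaling, a robust quasi-likelihood F test without covariates and Benjamini-Hochberg adjustment over all genes. CPM values use TMM-scaled totals, and SEs come from the F statistic. Exon lengths and positions are from GENCODE M21 on GRCm38, which gave a position for all 86 members. The edgeR test was checked on simulated data. Alternatives were DESeq2 1.42.0, limma-trend 3.58.1 with a prior count of 2, 4 other scalings, 3 other filters, a replicate block and each library left out. Members, partner and marker lists were chosen with earlier results of these data known. Members were named by unadjusted edgeR p under 0.05, by level (the most abundant of each stem and the 10 highest by CPM per kb) or by nearness to 0.5 CPM, partners by p, and Kif2a and Avil as label checks. Of the tested members 3 entered every fit and count but are not reported here singly. No 2 libraries agreed within sampling noise. The common biological coefficient of variation was 0.209.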

Additional observations from a re-analysis of the deposited data

How the results depend on the processing

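No potassium channel subunit was called under any alternative run. The 4 genes called over the whole table became 34 with DESeq2, 1 with scaling to pan-neuronal markers, 0 with a replicate block, and 0 to 10 when each library was left out. The median log2 difference of members, -0.11, was -0.010 relative to pan-neuronal markers and ranged from -0.26 to -0.037 when each library was left out, and the cause was not tested. All 13 members with an unadjusted edgeR p under 0.05 kept their sign in every alternative in which they were tested. They were picked by that p from the same counts, so the kept sign is no further support. The number of the 13 still at an unadjusted p under 0.05 ranged from 5 without control replicate 3 to 13 with limma-trend. It was 6 without control replicate 2, 6 without knockout replicate 3 and 8 with scaling to pan-neuronal markers. Avil passed with DESeq2 (adjusted p = 3.0e-05) and without knockout replicate 2 (edgeR adjusted p = 0.0265), and Lgi4 with DESeq2.

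Other named members turned sign. Relative to pan-neuronal markers Kcnh6 was at 0.049 and Kcne3 at 0.022, and without a filter Kcnk1 was at -0.0040. With each library left out, log2 differences ran from -0.12 to 0.28 for Kcna2, -0.13 to 0.19 for Kcnb2, -0.31 to 0.024 for Kcnd1, -0.24 to 0.095 for Kcnh6 and -0.15 to 0.19 for Kcnk1. They ran from -0.41 to 0.058 for Kcnma1, -0.052 to 0.25 for Kcns3, -0.33 to 0.034 for Kcnt1 and -0.097 to 0.14 for Kcnu1. They ran from -0.15 to 0.15 for Kcnip3, -0.50 to 0.28 for Kcne3, -0.74 to 0.20 for Kcnj6 and -0.87 to 0.27 for Kcna3.

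Libraries with the same replicate number did not deviate together (correlations of -0.16, -0.25 and -0.14), so the numbers were not taken as pairs, and under the block 0 genes were called. With 3 libraries a group, the common biological coefficient of variation of 0.209 limits which changes pass, and members under 1 CPM rest on few counts.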
